A study of Mus musculus with 9 samples.

Results

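The 59 mouse Rab genes with a number-and-letter name (Rab1a to Rab44) were followed through 3 stages of sperm development in RNA sequencing of total RNA. Members were taken by name, as protein-coding genes called Rab followed by a number and, at most, a letter and a further digit, and they make up 59 of the 21401 protein-coding genes and of the 50493 features of the count table. The family was chosen with earlier results of these data known. The libraries came from wild-type (WT) testis: pachytene spermatocytes (PAC), which are in meiotic prophase, round spermatids (RS), which are haploid and have just left meiosis, and cells labelled elongation spermatids (ES), which compact their chromatin and grow the tail. Each cell type had 3 libraries, named in the design text as biological replicates. Strain, age, animals per library and cell isolation were not given in the sources used here, so p-values measure only the spread between these libraries. All groups share the wild-type genotype, and the RNA named in the series title, TSCL1, was not analysed here.

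Rab proteins are small GTPases that switch between a GTP-bound form on membranes and a GDP-bound form held in the cytosol by a dissociation inhibitor (GDI). Exchange factors (GEFs) switch them on, GTPase-activating proteins (GAPs) switch them off, and the active form recruits effectors that move, tether or fuse vesicles. Each Rab marks a set of compartments, such as the Golgi, the endosomes or secretory vesicles. In male germ cells membrane traffic builds the acrosome, a secretory granule made from Golgi vesicles, and serves the growing flagellum, and Rab3a is known for its part in the release of the acrosome's contents.

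The libraries held 22910156 to 33801617 counts, and 3 reads came to between 0.0888 and 0.131 CPM, the reads of a feature per 1000000 reads of its library. CPM, scaled between libraries by edgeR's TMM factors, is used to compare libraries, and the deposited FPKM, which is per length, to compare genes within a cell type. The spermatid stages were checked against marker lists. All 18 markers of elongating spermatids, Prm1 and Tnp1 among them, were called higher in RS than in PAC, and 17 of 18 higher in ES than in RS. The 24 tested pachytene markers gave a summed level of 6804 to 6994 CPM in PAC, 5342 to 5594 in RS and 6447 to 7634 in ES, which did not separate PAC from ES, although 17 of them were called lower in ES than in PAC. The smallest TMM factor, 0.758, was that of ES replicate 1, and the largest, 1.099, that of RS replicate 1.

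Rab transcripts took a larger share of the RNA in PAC than in either spermatid type. The CPM of the 59 genes summed to 1555, 1370 and 1295 in the PAC libraries, to 915.8, 950.9 and 951.4 in RS and to 1137, 1102 and 1021 in ES. The PAC libraries were above all others on this scale, and RS was lowest. PAC was also highest as a share of all protein-coding counts, at 0.176%, 0.163% and 0.15% in PAC, 0.109%, 0.112% and 0.112% in RS and 0.1%, 0.11% and 0.103% in ES, and in summed FPKM, at 650.2 to 796.1 in PAC, 543.5 to 561.3 in RS and 508.2 to 546.7 in ES. On these 2 measures the mean of ES, not of RS, was lowest and the spermatid types overlapped, so the order of RS and ES depends on the scale. In bulk RNA, fewer cells of a type and less RNA per cell cannot be told apart. The 5 highest genes made up 49.9% ± 2.18 (SD, n = 3) of the summed FPKM in PAC, 56.9% ± 0.941 in RS and 58.2% ± 4.52 in ES. Between 12 and 15 Rab genes reached 10 FPKM in a library.

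The leading gene changed with the stage. Rab1b, which acts between the endoplasmic reticulum (ER) and the Golgi, led in PAC with 153.9, 128 and 102.2 FPKM, ahead of Rab22a, an early and recycling endosome Rab, at 76.9 ± 10.4 (SD, n = 3), with no overlap between their libraries. In RS Rab22a led at 91.6 ± 4.19 FPKM, without overlap with Rab28, a ciliary Rab, at 76.9 ± 6.32. Rab28 and Rab1b, at 70.3 ± 1.5, overlapped there. In ES Rab28 stood alone at 133 ± 18.4 FPKM, with Rab22a at 71.9 ± 7.37 and Rab1b at 37.6 ± 6.81 below it, and from Rab1b downward each of the 10 highest overlapped the next. The recycling endosome gene Rab11a ranked 4 in PAC and RS and 5 in ES, at 49, 40.3 and 28 FPKM. Completing the lists of 5 were Rab2a, a Golgi and ER Rab, at 63.6 ± 8.62 FPKM in PAC, Rab10, an exocytosis Rab, at 36.5 ± 1.91 in RS, and Rab5c, an early endosome Rab, at 32.7 ± 1.79 in ES.

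**Figure D1:**
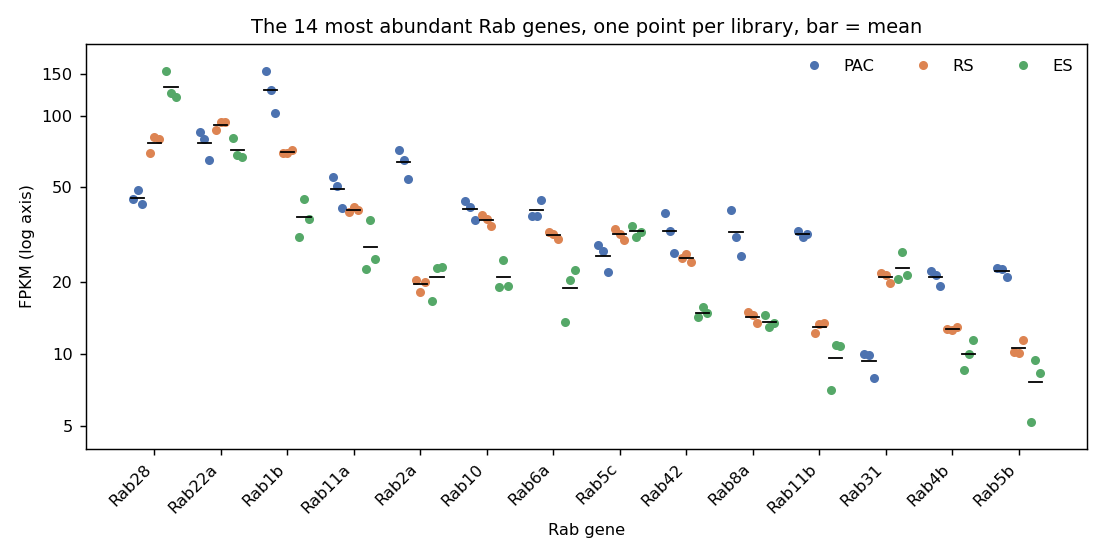
Levels of the 14 most abundant Rab genes in FPKM (log axis), 1 point per library in replicate order, with PAC in blue, RS in orange and ES in green and a bar at each mean. Rab1b is highest in PAC at 128 FPKM and Rab28 in ES at 132.6 FPKM, and the scale allows genes to be compared within a cell type.

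Of the 59 genes, 46 had enough reads to be tested and 13 had not. The 13 were Rab17, Rab19, Rab25, Rab26, Rab32, Rab33a, Rab37, Rab38, Rab39, Rab39b, Rab40b, Rab44 and Rab7b, none with more than 10 reads in a library. Rab37 and Rab38, a secretory granule and a melanosome Rab, had 0 reads in all 9 libraries, so only a level under the floor of 3 reads per library can be stated. On edgeR's joint quasi-likelihood test of the 3 cell types 42 of the 46, or 91.3%, passed an adjusted p of 0.05, beside 84.9% of the 14833 protein-coding genes tested. Those that did not were Rab15, Rab20, Rab22a and Rab5a, all of the endosomal group, with joint adjusted p of 0.479, 0.0762, 0.462 and 0.331 (edgeR).

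From PAC to RS most called Rab genes were lower: 26 of 46 (56.5%) were called lower and 6 (13%) higher, with a median log2 fold change of -0.85. Among protein-coding genes 46.9% were called lower and 26.3% higher, with a median of -0.46, and among all 26030 features tested 34.2% lower and 38.2% higher. From RS to ES the picture turned: 22 Rab genes (47.8%) were called higher and 2 (4.35%) lower, with a median of 0.53. The 22 include Rab13, Rab3a, Rab3b, Rab4a and Rab9b, which had enough reads to be tested only through their ES libraries. The protein-coding background was 31.8% higher and 21.7% lower with a median of 0.18, and that of all features 24.5% and 22.1%. Over the whole interval, ES against PAC, 16 (34.8%) were higher and 23 (50%) lower, beside 25.2% and 42.6% of protein-coding genes and 30.6% and 33.7% of all features. These 3 comparisons share libraries, so they are not independent of each other. Both spermatid steps depend on the scale. With TMM factors taken from protein-coding genes alone, RS against PAC gave 9 higher and 21 lower and a median of -0.46. The median of protein-coding genes moved alike, from -0.46 to -0.07, and that of all features from 0.11 to 0.50. Shares of the background called on this scale are not given here. On the deposited FPKM, tested with limma as log2(FPKM + 1), ES against RS gave 16 higher and 8 lower. There the median of protein-coding genes moved too, from 0.18 to -0.08, and that of all features from 0.05 to -0.14.

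**Figure D2:**
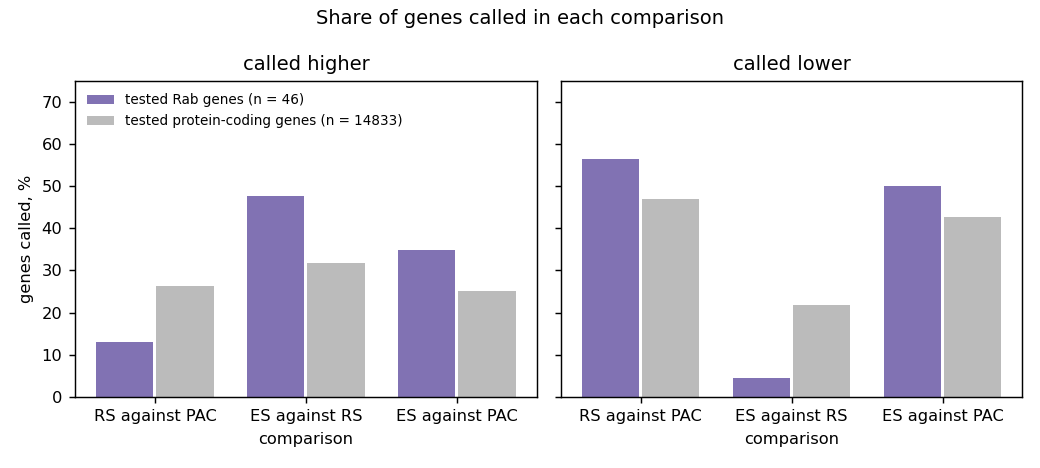
Share of genes called higher (left) or lower (right) in each comparison, in percent (edgeR, adjusted p below 0.05), for the 46 tested Rab genes (violet) and the 14833 tested protein-coding genes (grey). Rab genes lie at 56.5% lower in RS against PAC and 47.8% higher in ES against RS.

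Taken by stage, 21 of the 46 (45.7%) were highest in PAC, that is, called higher there than in both other cell types, beside 33.3% of protein-coding genes. In ES 12 (26.1%) were highest, beside 14.7%, and in RS only Rab27b (2.17%), beside 10.7%. Of those highest in ES, Rab13, Rab3a, Rab3b, Rab4a and Rab9b passed the filter at a minimum count of 10 only through their ES reads. Rab29, highest in PAC, passed it only through PAC. Such genes could be tested only if high in that cell type, and the background genes passed the same filter. A group of 12 (26.1%, background 20.1%) was lowest in RS: Rab12, Rab14, Rab18, Rab1a, Rab23, Rab24, Rab2a, Rab3a, Rab3b, Rab40c, Rab43 and Rab8b. A further 13 were lower in RS than in PAC and not called between RS and ES: Rab10, Rab11b, Rab27a, Rab29, Rab2b, Rab33b, Rab35, Rab36, Rab42, Rab4b, Rab5b, Rab6a and Rab8a. Not called into RS and higher in ES than in RS were 7: Rab13, Rab30, Rab34, Rab4a, Rab7, Rab9 and Rab9b. At neither step were Rab11a, Rab15, Rab20, Rab21, Rab22a, Rab5a and Rab5c called, with log2 fold changes from -0.43 to 0.24 in RS against PAC.

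**Figure D3:**
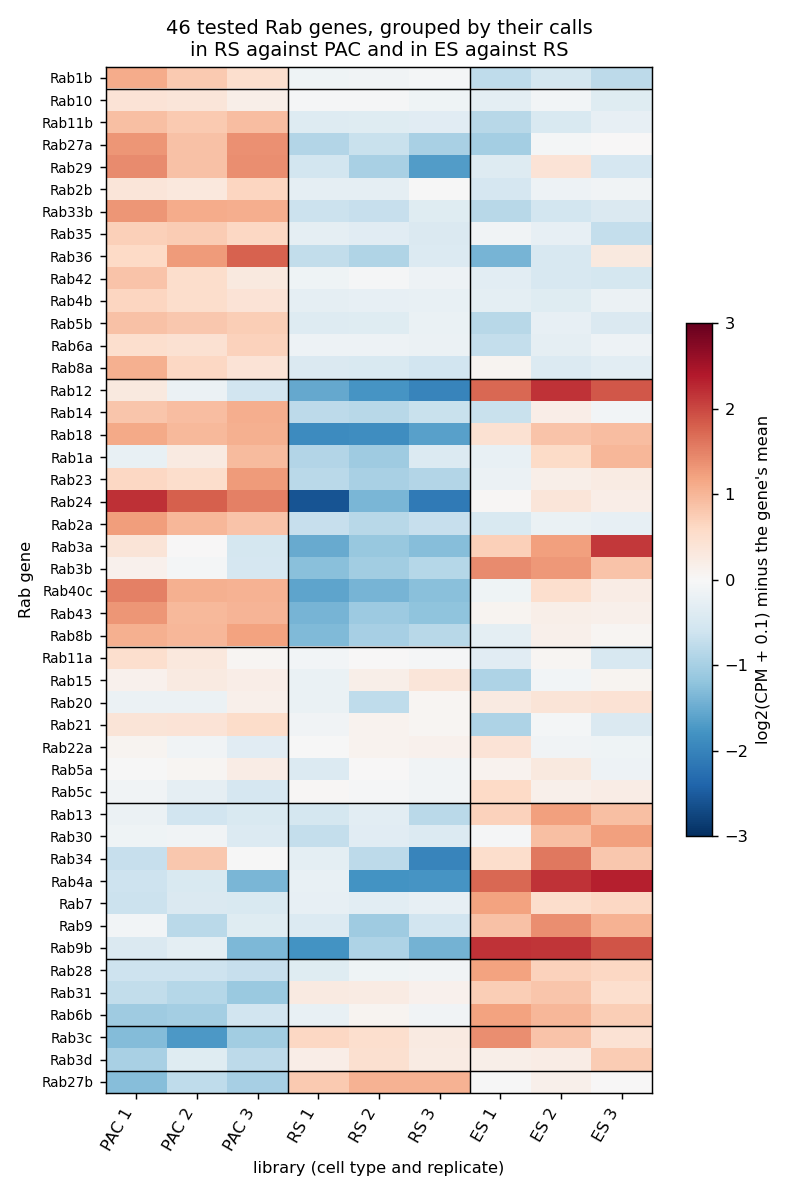
Level of each of the 46 tested Rab genes (rows) in each of the 9 libraries (columns), as log2(CPM + 0.1) minus the gene's own mean, red above and blue below it. Lines part the rows by their calls in RS against PAC and ES against RS, and the third block from the top holds the 12 genes that are lowest in RS.

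Markers of Sertoli and Leydig cells mostly fell from PAC to RS and rose into ES, while other somatic lists took other courses. Of 20 tested Sertoli cell markers 17 were called lower in RS than in PAC and 18 higher in ES than in RS, and the summed level of the list of 22 was 99.8 to 155.6 CPM in PAC, 46.3 to 50.2 in RS and 499.1 to 576.7 in ES, with Amh and Fshr at 0 in RS. All 11 Leydig cell markers were lower in RS than in PAC and higher in ES than in RS, at 126.1 to 165.8 CPM in PAC, 2.65 to 3.01 in RS and 31.1 to 39.2 in ES, with Lhcgr at 0 in RS. Of 13 tested macrophage and blood genes 7 were higher and 2 lower in RS than in PAC, and 10 were higher in ES than in RS. The summed level of the 15 listed was 10.3 to 18.8 CPM in PAC, 22.6 to 26.2 in RS and 206.2 to 306.8 in ES. Spermatogonial markers summed to 98.4 to 128.3 CPM in PAC, 41.3 to 44.2 in RS and 54.1 to 67.0 in ES, with Nanos2 at 0 in both spermatid types. Peritubular and vascular markers gave 7.47 to 9.62, 17.9 to 28.8 and 23.3 to 27.5 CPM, with Col1a1 at 0 in PAC. Of the 9 tested, 5 were higher and 1 lower in RS than in PAC. From RS to ES 2 were higher and 2 lower. The part of these cells in the Rab genes that were lowest in RS or rose into ES was not tested.

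In the ER and Golgi group 9 of the 12 tested genes were lower in RS than in PAC and 1 higher, and 7 were higher in ES than in RS and 1 lower, beside 46.9% and 26.3% of protein-coding genes for the first step and 31.8% and 21.7% for the second. Rab18, which works at the ER and on lipid droplets, stood at 15.1, 13.3 and 14.2 CPM in PAC, 1.75, 1.77 and 2.1 in RS and 9.3, 12.3 and 12.9 in ES. It was 7.56-fold lower in RS than in PAC (log2 fold change -2.92 (SE 0.19), adjusted p = 3.74e-07, edgeR) and 6.14-fold higher in ES than in RS (adjusted p = 3.64e-06), while ES and PAC did not differ beyond the test (log2 -0.30, adjusted p = 0.153). All 3 RS libraries lay below the other 6. Rab43, a Golgi Rab, showed the same dip at 25.2, 19.9 and 20.4 CPM in PAC, 3.74, 4.64 and 4.26 in RS and 10.6, 11.3 and 11.1 in ES, 5.17-fold lower in RS than in PAC and 2.61-fold higher in ES than in RS. Its exons share 75.4% of their bases with a second annotated coding gene on the same strand, Gm45140, so reads cannot be assigned to either with certainty.

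Rab1b fell at both steps. It stood at 276, 218 and 179.9 CPM in PAC, 116, 118 and 121 in RS and 74.9, 88.5 and 73.5 in ES, and no library of one cell type reached those of another. It was 1.9-fold lower in RS than in PAC (log2 fold change -0.92 (SE 0.16), adjusted p = 0.000336, edgeR), 1.5-fold lower in ES than in RS (adjusted p = 0.011) and 2.84-fold lower in ES than in PAC. Its paralog Rab1a, with 3.42, 4.82 and 7.86 CPM in PAC, 2.11, 1.86 and 2.98 in RS and 3.4, 5.995 and 8.04 in ES, went the other way from RS to ES, 2.52-fold higher (adjusted p = 0.0124, edgeR), a call that was lost without RS replicate 1 (adjusted p = 0.0501) or RS replicate 2 (0.0552). Its fall from PAC to RS was lost without PAC replicate 3 (adjusted p = 0.0597) or with TMM factors from protein-coding genes (0.0587).

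Rab2a, at 129, 108 and 97.2 CPM in PAC, 33.4, 30.1 and 33.5 in RS and 39, 47.2 and 45.4 in ES, was 3.45-fold lower in RS than in PAC (log2 fold change -1.79 (SE 0.15), adjusted p = 1.64e-06, edgeR). Its small rise into ES, 1.36-fold with adjusted p = 0.0267, was lost without any of PAC replicate 2, RS replicates 1, 2 and 3 or ES replicates 2 and 3, with adjusted p from 0.0507 to 0.132 (edgeR), and with TMM factors from protein-coding genes (0.0865). Rab33b, a Golgi Rab that takes part in autophagy, fell once and stayed there: 24.2, 20.8 and 20.6 CPM in PAC, 6.06, 5.84 and 7.36 in RS and 5.3, 6.53 and 7.003 in ES, 3.47-fold lower in ES than in PAC. Rab36, another Golgi Rab, varied more between replicates, with 3.76, 6.1 and 8.54 CPM in PAC, 1.42, 1.26 and 1.81 in RS and 0.865, 1.73 and 3.03 in ES, and was 4.09-fold lower in RS than in PAC (SE 0.41 on the log2 scale). The ES and RS libraries of Rab36 overlapped, and so did those of Rab33b. Rab34, which serves the Golgi, lysosome position and cilium formation, rose 4.37-fold from RS to ES at low levels, 0.498, 1.61 and 0.865 CPM in PAC, 0.693, 0.464 and 0.146 in RS and 1.3, 2.8 and 1.61 in ES, and lost the call without ES replicate 2 (adjusted p = 0.0501, edgeR). Of the other tested members, Rab2b, the paralog of Rab2a, was 1.63-fold lower in ES than in PAC, and Rab30, a Golgi Rab, 2.12-fold higher. The call of Rab30 was lost without PAC replicate 3 or ES replicate 2 or 3 (adjusted p 0.0633 to 0.111, edgeR).

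Rab6a and Rab6b, which act in traffic through the Golgi, moved apart. Rab6a, at 97.8, 94 and 110.5 CPM in PAC, 61.3, 61.1 and 60.3 in RS and 41.4, 56.4 and 61.5 in ES, was 1.9-fold lower over the interval, and its fall into RS was lost on the deposited FPKM (adjusted p = 0.110, limma). Rab6b stood at 0.56, 0.585 and 0.829 CPM in PAC, 1.08, 1.36 and 1.2 in RS and 3.13, 2.67 and 2.22 in ES and was 4.05-fold higher (log2 fold change 2.02 (SE 0.30), adjusted p = 0.000111, edgeR). The Rab6b libraries did not overlap between cell types. Its rise into RS had adjusted p = 0.0193 and was lost without PAC replicate 1 or 2 or RS replicate 2 (0.0572, 0.0584 and 0.0678).

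In the early and recycling endosome group 9 of the 15 tested genes were not called from PAC to RS and 11 were not called from RS to ES, and the calls in protein-coding genes at these steps were 46.9% lower and 26.3% higher, and 31.8% higher and 21.7% lower. Rab22a, the highest of those never called, stood at 159.8, 141 and 119.7 CPM in PAC, 151, 165 and 165 in RS and 202, 141 and 139 in ES, and its 3 groups overlapped. Its log2 fold change was 0.19 (SE 0.17) in RS against PAC and 0.20 (SE 0.17) in ES against PAC, and with upper-quartile factors both passed the test (0.50, adjusted p = 0.0306, and 0.50, adjusted p = 0.0331, edgeR). Rab5c, at 53.6, 48.1 and 40.5 CPM in PAC, 58.6, 56.4 and 53.2 in RS and 87.2, 64.3 and 67.8 in ES, was called higher in ES than in PAC (1.54-fold, adjusted p = 0.00424, edgeR) and all its ES libraries lay above the rest. Rab5b, with 71.3, 67.7 and 64.8 CPM in PAC, 29.4, 30.1 and 33.6 in RS and 21.6, 32.4 and 28.7 in ES, was 2.46-fold lower over the same interval. In this fit 2 genes of the set that drives early endosome fusion thus moved in opposite directions, and Rab5a was not called in any comparison. The call of Rab5c was lost on the deposited FPKM (adjusted p 0.0502 to 0.0580, limma), where its ES and RS libraries overlapped.

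Rab11a and Rab11b mark recycling endosomes. Rab11b, at 55.6, 51.1 and 56.9 CPM in PAC, 22.6, 23.1 and 23.6 in RS and 16.5, 21.5 and 25.2 in ES, was 2.36-fold lower in RS than in PAC (log2 fold change -1.24 (SE 0.16), adjusted p = 3.75e-05, edgeR) and not called between RS and ES. Rab11a, with 126, 109.8 and 91.4 CPM in PAC, 83.3, 89.3 and 86.1 in RS and 69.3, 91.7 and 63.4 in ES, was called only in ES against PAC (1.46-fold lower, adjusted p = 0.0129, edgeR) and lost that call with upper-quartile factors (adjusted p = 0.230), with TMM factors from protein-coding genes (0.135) and in a fit of the 2 cell types (0.169). Pseudogenes named after Rab11b, Rab5a, Rab7 and Rab9b are annotated in the genome, and how the authors' counting assigned reads that fit a gene and its copy was not given in the sources used here.

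Rab4a and Rab4b return cargo from early endosomes to the surface. Rab4a was close to the detection limit before the last stage, at 0.249, 0.292 and 0.108 CPM in PAC, 0.362, 0.0546 and 0.0584 in RS and 1.68, 2.31 and 2.6 in ES, with 2 reads in RS replicates 2 and 3 and 12 in RS replicate 1. Every ES library was above every other library, 9.95-fold over PAC (log2 fold change 3.31 (SE 0.61), adjusted p = 0.000551, edgeR). Without RS replicate 1 it was also called lower in RS than in PAC (log2 -1.86, adjusted p = 0.0315, edgeR). Rab4b, at 25.4, 23.3 and 21.6 CPM in PAC, 13.6, 13.6 and 14 in RS and 13.2, 12.6 and 14.4 in ES, was 1.75-fold lower in ES than in PAC, and 65% of its exonic bases lie in the coding gene Gm21983 on the same strand. Among the others, Rab14, which links endosomes to the trans-Golgi, was 3.31-fold lower in RS than in PAC and Rab35, a recycling and cytokinesis Rab, 2.07-fold lower, and Rab13, a Rab of epithelial junction traffic, was 3.46-fold higher in ES than in RS at 1.16 CPM or less in every library. Rab21, an early endosome Rab, was called only in ES against PAC, 1.84-fold lower. The rise of Rab14 from RS to ES was lost without any of PAC replicate 2, the RS replicates or ES replicates 2 and 3 (adjusted p 0.0512 to 0.134, edgeR) and with TMM factors from protein-coding genes (0.0629).

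Among late endosome and lysosome Rabs 5 of 7 tested genes were higher in ES than in RS and none lower, beside 31.8% and 21.7% of protein-coding genes. One of the 5, Rab9b, passed the filter only through its ES reads, so its place among them was partly set in advance. Rab12, which sends receptors from recycling endosomes to lysosomes, stood at 3.02, 2.16 and 1.62 CPM in PAC, 0.783, 0.655 and 0.555 in RS and 8.32, 11.5 and 9.18 in ES. It was 3.41-fold lower in RS than in PAC and 14.5-fold higher in ES than in RS (log2 fold change 3.86 (SE 0.29), adjusted p = 4.05e-06, edgeR), with no overlap between any groups. Rab9, which returns cargo from late endosomes to the trans-Golgi, had 1.55, 0.914 and 1.26 CPM in PAC, 1.24, 0.737 and 1.08 in RS and 3.13, 4.53 and 3.55 in ES and was 3.67-fold higher in ES than in RS (log2 fold change 1.88 (SE 0.30), adjusted p = 0.000442, edgeR). PAC and RS overlapped for Rab9, and ES was above both. Its X-linked paralog Rab9b rested on 5, 5 and 1 reads in PAC and 0, 3 and 1 in RS against 27, 32 and 25 in ES, the last at 1.46, 1.42 and 1.18 CPM. It was called higher in ES than in either other type (adjusted p = 0.000228 against RS and 0.000695 against PAC, edgeR), and a fitted fold on so few reads depends on the prior count. Rab7, which carries late endosomes to lysosomes, was 2.12-fold higher in ES than in RS, at 14.8 ± 0.492 CPM in RS and 31.3 ± 8.56 in ES (SD, n = 3). The remaining members of the group, Rab29, which works at the trans-Golgi and lysosome, and Rab42, were 3.03-fold and 2.02-fold lower in ES than in PAC, Rab29 at no more than 10 reads in any spermatid library. The call of Rab29 was lost without PAC replicate 1 or 3 or ES replicate 1 or 3 (adjusted p 0.0699 to 0.0878, edgeR).

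Rab24, a Rab linked to autophagy, had the largest fall into RS of the tested Rab genes, at 15.2, 11.4 and 9.41 CPM in PAC, 0.452, 1.2 and 0.672 in RS and 3.35, 4.22 and 3.74 in ES, 15.3-fold lower than in PAC (log2 fold change -3.94 (SE 0.33), adjusted p = 1.86e-06, edgeR). It was 4.82-fold higher in ES than in RS and still 3.18-fold lower in ES than in PAC, and the 3 groups did not overlap. The coding gene Prelid1, named here because 62.4% of the exonic bases of Rab24 lie opposite its exons, followed the same course at 12.4 ± 2.22 CPM in PAC, 0.669 ± 0.257 in RS and 5.76 ± 0.826 in ES (SD, n = 3). The library kit kept strand, but the strand setting of the counting is not given in the sources used here, so reads of both genes cannot be told apart.

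Secretory Rabs split by gene, and all 9 tested were called in RS against PAC and in ES against PAC, 6 lower and 3 higher in the first and 4 lower and 5 higher in the second. Of protein-coding genes 46.9% were lower and 26.3% higher in the first and 42.6% and 25.2% in the second, so most genes were called there too. Rab3a and Rab3b, both higher in ES, passed the filter only through their ES reads. Rab27a and Rab27b dock secretory granules at the membrane. Rab27a, at 10.6, 7.71 and 10.9 CPM in PAC, 2.23, 2.57 and 2.07 in RS and 2, 3.997 and 4.21 in ES, was 4.25-fold lower in RS than in PAC (log2 fold change -2.09 (SE 0.28), adjusted p = 4.66e-05, edgeR). Rab27b, at 1.83, 2.63 and 2.23 CPM in PAC, 7.96, 9.56 and 9.49 in RS and 4.54, 5.11 and 4.59 in ES, was 4.03-fold higher in RS (log2 fold change 2.01 (SE 0.20), adjusted p = 6.10e-06) and then 1.9-fold lower in ES than in RS (adjusted p = 0.00243, edgeR). Each cell type formed a separate band for Rab27b, RS above ES above PAC, and Rab27b was the only tested Rab gene called highest in RS.

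The 4 Rab3 genes serve regulated exocytosis, and all 4 were called higher in ES than in PAC, at 3.22-fold for Rab3a, 2.83-fold for Rab3b, 5.51-fold for Rab3c and 2.21-fold for Rab3d (adjusted p 0.0139, 0.00645, 7.40e-05 and 0.00284, edgeR). They parted in RS. Rab3c, at 0.529, 0.365 and 0.649 CPM in PAC, 2.26, 2.08 and 1.75 in RS and 3.94, 2.67 and 1.99 in ES, and Rab3d, at 1.18, 1.86 and 1.37 CPM in PAC, 2.8, 3.39 and 2.86 in RS and 2.76, 2.84 and 4.16 in ES, were 3.92-fold and 2.05-fold higher in RS than in PAC (adjusted p = 0.000341 and 0.00443, edgeR) and not called between RS and ES. Rab3a, at 0.498, 0.365 and 0.216 CPM in PAC, 0.0603, 0.109 and 0.0876 in RS and 0.649, 0.977 and 1.89 in ES, was lower in RS than in PAC and higher in ES than in RS (log2 fold change 3.70 (SE 0.60), adjusted p = 0.000453, edgeR), with 2, 4 and 3 reads in RS. Rab3b, at 0.56, 0.475 and 0.324 CPM in PAC, 0.151, 0.191 and 0.234 in RS and 1.51, 1.38 and 0.994 in ES, took the same course, 6.6-fold higher in ES than in RS. All ES libraries of both genes were above all PAC and RS libraries. The fall of Rab3b into RS (adjusted p = 0.0266) was lost without PAC replicate 1 or 2 or RS replicate 1 or 2 (0.0560 to 0.0840) and under several other settings. That of Rab3a was lost without PAC replicate 1 (0.0503), and its difference between ES and PAC was lost without PAC replicate 3 (0.0507) or ES replicate 3 (0.111, edgeR).

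Rab8a, Rab8b and Rab10 deliver vesicles to the surface, and Rab8 also serves the cilium. Rab8b, at 42.9, 41 and 47.7 CPM in PAC, 8.13, 10.3 and 11.5 in RS and 16.8, 22.8 and 21.3 in ES, was 4.39-fold lower in RS than in PAC (log2 fold change -2.13 (SE 0.18), adjusted p = 1.73e-06, edgeR) and 2.04-fold higher in ES than in RS, its ES libraries lying between the others. Rab8a was 2.32-fold lower in RS and not called between RS and ES. Rab10, at 74, 71.9 and 63 CPM in PAC, 54.8, 54.7 and 51.1 in RS and 45.6, 52.4 and 43.3 in ES, was called lower in RS than in PAC at log2 -0.38 (adjusted p = 0.0205, edgeR), but with TMM factors from protein-coding genes the value was 0.01, and the call was lost without PAC replicate 2 or any RS replicate (adjusted p 0.0577 to 0.0821).

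Rab28 and Rab23, the ciliary pair, parted from PAC to RS and over the whole interval, while both were called higher in ES than in RS. Rab28, which is needed in photoreceptor cilia, rose at both steps from 53.7, 53.4 and 51.2 CPM in PAC, 63.9, 75.5 and 76.3 in RS and 192, 134 and 127 in ES, and no libraries overlapped between cell types. It was 2.1-fold higher in ES than in RS (log2 fold change 1.07 (SE 0.17), adjusted p = 0.000322) and 2.86-fold higher in ES than in PAC (log2 fold change 1.52 (SE 0.17), adjusted p = 1.32e-05, edgeR). The step into RS was 1.36-fold with adjusted p = 0.029 and did not pass with RLE factors (0.0678), with DESeq2 (0.0668), or without any one of PAC replicates 1, 2 and 3 and RS replicates 2 and 3 (0.0528 to 0.0861). Rab23, a regulator of Hedgehog signalling at the cilium, was 3.35-fold lower in RS than in PAC and 1.98-fold higher in ES than in RS. Its rise into ES was lost on the deposited FPKM (adjusted p 0.0550 to 0.109, limma). Over the whole interval Rab23 was 1.7-fold lower in ES than in PAC. That call was lost with upper-quartile factors (adjusted p = 0.069) and in a fit of the 2 cell types (0.065, edgeR). Rab40c, which carries a SOCS box that links it to ubiquitin ligases, stood at 20.4, 14.8 and 14.6 CPM in PAC, 2.29, 2.62 and 2.89 in RS and 6.38, 9.95 and 8.28 in ES, 6.38-fold lower in RS than in PAC (log2 fold change -2.67 (SE 0.23), adjusted p = 1.82e-06, edgeR) and 3.15-fold higher in ES than in RS, with RS below every other library.

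Of the tested genes, 4 were called the same way at both steps: Rab1b fell, and Rab28, Rab31 and Rab6b rose. Rab31, which works between the trans-Golgi and endosomes, stood at 32.2, 30.1 and 24.9 CPM in PAC, 65.1, 64.3 and 59.4 in RS and 89.9, 96.5 and 77.3 in ES, 3.02-fold higher in ES than in PAC (log2 fold change 1.59 (SE 0.15), adjusted p = 3.56e-06, edgeR), with no overlap between cell types. Its step from RS to ES (adjusted p = 0.0158) was lost without any one RS replicate or without ES replicate 2 (0.0521 to 0.0718), with TMM factors from protein-coding genes (0.0689) and on the deposited FPKM (log2 0.11, adjusted p = 0.585, limma). The DNA upstream of an annotated start is shown for 3 of these 4 genes, whose transcripts kept one direction. It comes from RefSeq promoter windows on GRCm38.p6, each read 5′ to 3′ in the gene's sense. Bases covered by an annotated exon or by the gene itself are left out, so the Rab1b and Rab28 stretches stop short of the start. Capitals mark a CCAAT box (CCAAT or its complement), the only match among the 5 motifs searched. Rab6b is not shown because an annotated exon overlaps the bases before its start, and its window held none of the 5 motifs, so the matches below are not shared by all 4 genes.
Rab1b: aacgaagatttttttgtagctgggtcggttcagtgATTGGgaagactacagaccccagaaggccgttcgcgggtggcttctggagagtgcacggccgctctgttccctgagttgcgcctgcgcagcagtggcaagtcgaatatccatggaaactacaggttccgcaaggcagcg
Rab28: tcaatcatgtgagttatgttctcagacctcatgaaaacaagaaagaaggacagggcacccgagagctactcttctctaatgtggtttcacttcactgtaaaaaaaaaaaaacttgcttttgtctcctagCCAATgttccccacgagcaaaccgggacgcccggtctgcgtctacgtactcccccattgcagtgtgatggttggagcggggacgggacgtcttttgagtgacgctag
Rab31: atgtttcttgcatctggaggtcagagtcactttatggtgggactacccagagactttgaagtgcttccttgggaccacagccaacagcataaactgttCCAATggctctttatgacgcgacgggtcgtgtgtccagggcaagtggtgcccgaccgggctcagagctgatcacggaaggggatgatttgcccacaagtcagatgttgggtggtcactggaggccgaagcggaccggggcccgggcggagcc
The stretches lie on the minus strand, before Rab1b at chr19:5107073-5107246, Rab28 at chr5:41708194-41708429 and Rab31 at chr17:65772753-65773002. All are outside annotated exons, and the CCAAT boxes begin 215, 121 and 152 bases before the start. Their GC contents were 56.3%, 48.7% and 57.6%.

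RefSeq promoter windows of 300 bases (250 before and 50 after a start) matched 48 of the 59 genes with 60 windows. Their median GC content was 61.2%, beside 56.7% over 20928 windows of 17182 protein-coding genes, and their median number of CpG sites 19.5 beside 13. Searched on both strands, CCAAT lay in 43.3% of the Rab windows and 38.2% of protein-coding windows, and TATAAA in 6.67% and 12.5%. The CRE motif TGACGTCA, the site of the CREB and CREM factors, lay in 3.33% (Rab25 and Rab5a) and 2.27%. The ETS motif CCGGAAGT lay in 3.33% (Rab11a and Rab24) and 5.2%, and the NRF1 motif GCATGCGC in 3.33% (Rab1a and Rab23) and 3.56%. CCAAT is short and can overlap other matches. Windows of genes highest in PAC had a median GC content of 63% and those of genes highest in ES 60.3%, with ranges of 45.3 to 75.3% and 51.7 to 78.7%.

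Shares between paralogs, taken from FPKM within each library, changed with the stage in several families. Rab27b made up 28.4% ± 7.35 of the Rab27 pair in PAC, 86.9% ± 1.45 in RS and 70.8% ± 7.59 in ES (SD, n = 3). No library of PAC overlapped the spermatids. Rab5c rose from 49.5% ± 2.84 of the Rab5 set to 69.4% ± 2.61 and 75% ± 5.67, while Rab5a stayed near 7.76%, 7.61% and 7.65%. Rab11a held 60.4% ± 3.72, 75.6% ± 0.626 and 74.3% ± 3.90 of the Rab11 pair. Rab4a went from 0.748% ± 0.311 and 0.946% ± 1.05 to 11.9% ± 2.07 of the Rab4 pair. Rab1b kept 98.2%, 98.7% and 95.2% of the Rab1 pair, and Rab7 over 99% of the Rab7 pair in each cell type. Shares of the Rab3 and Rab6 families are left out because the ratio of FPKM to CPM of Rab3b and Rab6b varied 8.72-fold and 3.79-fold between libraries, against a median of 1.06-fold over the tested members.

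**Figure D4:**
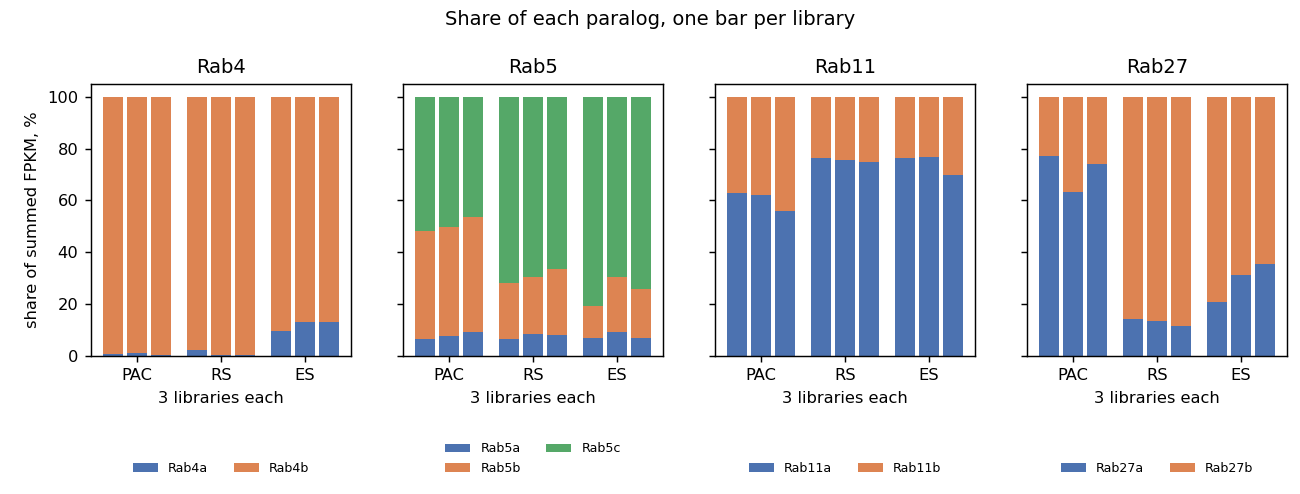
Share of each paralog in the summed FPKM of its family, in percent, 1 bar per library and 3 libraries per cell type, for Rab4, Rab5, Rab11 and Rab27. Rab27b passes from 28.4% of its pair in PAC to 86.9% in RS, and Rab4a is visible mainly in ES, at 11.9%.

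The proteins that switch and read Rabs were followed with a list of 165 genes, of which 163 were in the table and 153 were tested. From PAC to RS 86 (56.2%) were lower and 26 (17%) higher, from RS to ES 60 (39.2%) were higher and 21 (13.7%) lower, and from PAC to ES 73 (47.7%) were lower and 33 (21.6%) higher. The protein-coding shares given above for the same comparisons were 46.9% and 26.3%, 31.8% and 21.7%, and 42.6% and 25.2%. With TMM factors from protein-coding genes the first comparison gave 65 lower and 38 higher and the second 51 higher and 29 lower. On the deposited FPKM (limma, log2(FPKM + 1)) the balance of the second was gone, at 31 higher and 34 lower. The median of protein-coding genes in that comparison was -0.08 on FPKM and 0.18 in the main fit. Among exchange factors 32 of 46 tested were lower in RS than in PAC and 6 higher, beside 34 lower and 10 higher of 58 effectors and 20 lower and 9 higher of 41 GTPase-activating proteins. Of the 8 chaperone and prenylation genes, 1 was called in that step. Gdi2, the more abundant GDI, stood at 417, 368 and 366 CPM in PAC, 404, 415 and 429 in RS and 424, 396 and 394 in ES and was called in no comparison. The prenyltransferase subunit gene Rabggtb was lower in ES than in RS (log2 -1.27, adjusted p = 0.000616, edgeR).

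The largest rises from PAC to RS were those of Mical3, a Rab8 effector, at 27.6, 43.1 and 40.2 CPM in PAC, 179.5, 185 and 182 in RS and 514, 345 and 467 in ES (log2 2.30, SE 0.20), Tbc1d21, a GAP-family gene (log2 2.0), and Rab3il1, an exchange factor for Rab8 (log2 1.75). All 3 RS libraries of Mical3 were above PAC and all ES libraries above RS. The largest falls were of Rinl (log2 -4.49) and Als2cl (log2 -3.58), relatives of Rab5 exchange factors, and Rbsn, the Rab5 effector rabenosyn (log2 -3.41), at 23.2, 18.6 and 17.7 CPM in PAC, 1.9, 1.77 and 1.93 in RS and 6.86, 7.64 and 8.19 in ES. Other Rab5 exchange factor genes did not follow: Rin1 was called higher in RS (log2 0.90), and Rin2 (log2 0.69) and Rabgef1 (log2 0.25) were not called. From RS to ES the largest rises were of Sytl4, the granuphilin that binds Rab27 and Rab3 (log2 5.48), Tbc1d8 (log2 4.78) and Tbc1d4, a GAP for Rab10 (log2 3.82), and the largest falls of Rufy1, an effector of Rab4 and Rab14 (log2 -1.95), Tbc1d2, a GAP for Rab7 (log2 -1.44), and Tbc1d10a, a GAP for Rab27 and Rab35 (log2 -1.43). The calls of the genes with the largest rises and falls had an adjusted p of at most 0.000207 (edgeR). Sytl4 stood at 1.99, 1.39 and 0.577 CPM in PAC, 0.12, 0.164 and 0.234 in RS and 6.59, 9.19 and 7.86 in ES. Sertoli cell markers as a list had the same order of cell types, with Wt1, named after its values were seen, at 1.4 ± 0.631 CPM in PAC, 0.124 ± 0.0298 in RS and 8.56 ± 1.56 in ES (SD, n = 3), and the part of somatic cells in the regulators that rose into ES was not tested.

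Over the whole interval Mical3 (log2 3.58), Tbc1d20, a GAP for Rab1 and Rab18 whose loss is known to make male mice sterile (log2 3.52), and Bicd1, which couples Rab6 vesicles to dynein (log2 3.38), rose most. Tbc1d20 stood at 80.9, 91.8 and 84.8 CPM in PAC, 228, 245 and 267 in RS and 1121, 915 and 922 in ES, with no overlap between cell types. Chml, a Rab escort protein gene, had 0 reads in every ES library and 4.7 ± 1.64 CPM in PAC (SD, n = 3), at least 32-fold lower in ES than in PAC against a floor of 3 reads per ES library. It had reads in 1 of the 3 RS libraries. The call in ES against PAC was lost with no filter on low counts (adjusted p = 0.0734) and with the replicate block (0.0863, edgeR). Als2cl (log2 -2.27) and Rinl (log2 -2.17) followed, and the other escort protein gene, Chm, was higher in ES than in PAC (log2 2.23, adjusted p = 5.74e-06, edgeR).

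Members lay on 18 chromosomes, with Rab33a, Rab39b, Rab9 and Rab9b on the X. All 59 were found in the GENCODE vM21 annotation of the same build, where 39 share no exonic base with another gene. Besides the cases above, 59.3% of the exonic bases of Rab2b lie opposite the annotated gene Gm43766 and 19% of those of Rab6a lie opposite Mrpl48. For Rab20 25.6% lie opposite E230013L22Rik, and for Rab33b 18.7% lie opposite Gm38160. The remaining overlaps of tested members were smaller. Of the deposited counts of the members 6.21% were not whole, and 53 of the 59 genes had whole counts in all libraries.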

How the data were processed

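Total RNA of 9 testis libraries, 3 per cell type, was depleted of ribosomal RNA and made into strand-marked libraries with dUTP, per the labels' protocols. HISAT2, StringTie and the build GRCm38.p6 are named, without versions or order, in the submitters' processing notes. The authors deposited estimated counts per feature, which the file calls raw although 18.85% of the values are not whole, and the tests used them rounded. FPKM values of the same features were deposited as well, with totals and lengths not given in the sources used here. Identifiers were named from a RefSeq table of GRCm38.p6, which matched 21726 of 21877 genes.

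Features were kept with filterByExpr at a minimum count of 10 (26030 kept, 24463 removed). Libraries were scaled by TMM and compared with edgeR's quasi-likelihood test (robust, two-sided, all 9 libraries in 1 fit, common biological coefficient of variation 0.24). P-values were adjusted by Benjamini-Hochberg over all features and called below 0.05. The standard error was taken as the fold change divided by the root of F. Tested on simulated counts with known changes, the fit of RS against PAC recovered 91.2% of 57 genes changed 4-fold, 33.3% of 72 changed 2-fold and 5.63% of 71 changed 1.5-fold, with 8 false calls among 25384 genes. Far fewer genes were changed in these counts than were called in the data, which makes the adjusted threshold stricter there. The rates therefore do not give the recovery in the real comparison. A chi-square of replicates per feature ran from 6.22 to 102.1, so replicates differed by more than sampling noise. Floors cover counting error only.

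Values in every library are given, for each comparison and direction, for up to 8 called members with the largest change and at least 1 CPM in one of the cell types, for the 5 highest by FPKM in each cell type, and for paralogs called in opposite directions. Of the regulators, 3 per comparison and direction are named, most by their fold change alone. Members that do not meet this rule, Prelid1, Wt1, Rin1, Rin2 and Rabgef1, and the chaperone genes Gdi2, Rabggtb and Chm were named after their values were seen. The members, gene lists and markers were chosen with earlier results of these data known. Alternatives were other scalings, filters, DESeq2, fits of 2 cell types, a replicate block, FPKM with limma and leaving out each library. Tests ran in edgeR 4.0.16, DESeq2 1.42.0 and limma 3.58.1 under R 4.3.3. Tables and plots were made with pandas 2.3.3 and matplotlib 3.10.9 in Python 3.11.15.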

Additional observations from a re-analysis of the deposited data

How the results depend on the processing

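Across the 2734 values of the 46 tested Rab genes under an alternative, 2564 kept direction and side of the threshold, 113 lost the call, 56 gained one and 1 reversed: Rab10 in RS against PAC, at 0.011 with TMM factors from protein-coding genes. The median of Rab genes in RS against PAC (-0.85) moved to -0.54 with upper-quartile factors, -0.46 with protein-coding TMM factors, -0.73 with a minimum count of 30, and -0.34, -0.46 and -0.14 on FPKM (pseudocount 1, 0.1, and 1 without a filter). It stayed below 0 in each. The median of protein-coding genes (-0.46) moved on the same settings, in the same order, to -0.16, -0.07, -0.41, -0.16, -0.31 and -0.03. In ES against RS the Rab median (0.53) moved to 0.13, 0.17 and 0.049 on those FPKM settings, and the protein-coding median (0.18) to -0.08, -0.16 and -0.01. The number of Rab genes lower (2) moved to 4 with protein-coding TMM factors and to 8, 7 and 6 on FPKM. In ES against PAC the Rab median (-0.52) moved to -0.22 with upper-quartile factors, -0.28 with protein-coding TMM factors, -0.26 without a filter, -0.33 in a fit of the 2 cell types and -0.09 on FPKM without a filter. Other settings moved these medians the other way. With all libraries kept, the full ranges were -0.91 to -0.14 in RS against PAC, 0.049 to 0.68 in ES against RS and -0.69 to -0.09 in ES against PAC. Regulators higher in ES than in RS (60) numbered 31, 35 and 33 on FPKM, and those lower (21) 34 and 35 with a filter. Over these settings the number higher ran from 31 to 80 and the number lower from 16 to 35.

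Leaving out 1 library at a time gave medians of -0.91 to -0.75 in RS against PAC, 0.46 to 0.70 in ES against RS and -0.62 to -0.21 in ES against PAC, the last without ES replicate 1. Rab genes called higher numbered 4 to 6, 18 to 23 and 14 to 16 in these comparisons, those called lower 24 to 27, 2 to 3 and 22 to 23. The causes were not tested. The joint test, whose alternatives were chosen after seeing the data, called 36 to 43 of the Rab genes.

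Deviations of same-numbered libraries from their cell type means correlated at -0.04 to 0.273. Libraries of different numbers were not compared, so these values cannot settle whether replicate numbers pair the libraries. With the replicate block the counts were 6 higher and 25 lower, 24 and 2, and 16 and 23, and the fall of Rab3b into RS had adjusted p = 0.0533 (edgeR). Genes under a few reads per library, such as Rab9b, Rab3a and Rab4a in RS, were limited by depth.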
